A study of Mus musculus with 36 samples.

Results

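The nuclear-encoded subunits of respiratory complexes II to V, with cytochrome c, were followed in RNA-seq libraries of mouse whole hearts. Members were taken by gene symbol (Sdha to Sdhd, all symbols starting with Uqcr, Cyc1, Cycs, symbols from Cox4 to Cox8 and all starting with Atp5, without names marked as pseudogenes), which gave 49 of the 25626 listed genes. Complex II had 4 members, complex III 9, cytochrome c 1, complex IV 18 and complex V 17. All but Cox7b2 (3.87 normalized counts on average) passed the filter on low values, so 48 were tested.

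The 36 libraries form 6 groups of 6. Con-Sham and Tg-Sham were control and cSirt4-Tg mice with a sham operation and vehicle. Con-TAC and Tg-TAC were the same genotypes with vehicle after TAC (transverse aortic constriction), a banding of the aorta that puts the heart under pressure overload. In Con-TAC-MQ and Tg-TAC-MQ, TAC was combined with MitoQ, a mitochondria-targeted antioxidant. The study asked how reactive oxygen species from mitochondria may worsen heart disease in cSirt4-Tg mice. No source used here gives the promoter of the transgene, the age or sex of the mice, the time after surgery, or whether animals were pooled. Libraries held 14.8 to 60.01 M recovered reads (median 28.4 M). Sirt4, the gene the Tg label names, had means of 412 normalized counts in Con-Sham, 377 in Tg-Sham, 341 in Con-TAC and 362 in Tg-TAC, and the ranges overlapped. The deposited Sirt4 counts therefore do not separate the genotypes, and every genotype difference below is one between groups as labelled. Cardiomyocyte markers were abundant in every library, with a sum over 12 genes of 1180700 to 2940500. Library names carry a number of unstated meaning. Every MitoQ library had 20 or 21. Among the vehicle TAC libraries, Con-TAC 6 had 20 and Tg-TAC 6 had 29, and the rest had 7 to 12. Sham libraries had 9 to 14 or 29 to 31. Rn7sk, a noncoding RNA, had 1228 to 7997 normalized counts in sham libraries and 32.7 to 359 in vehicle TAC libraries, without overlap. TAC and this library feature cannot be told apart in the comparisons with sham.

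Complex II (succinate dehydrogenase) passes electrons from succinate to ubiquinone. Complex III passes them on to cytochrome c, complex IV (cytochrome c oxidase) passes them to oxygen, and complex V (ATP synthase) uses the resulting proton gradient to make ATP. Complexes III, IV and V also contain subunits encoded in the mitochondrial genome, and some complex IV subunits exist as a heart and muscle form beside a ubiquitous form. The heart depends on this chain for most of its ATP.

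The member that differed most firmly between groups was Cox6a1, the ubiquitous form of subunit 6A of complex IV. The 250 bases before its annotated start, from RefSeq on GRCm38.p6 (chr5:115348959-115349208, minus strand; the deposited counts use mm39), are shown because they hold letters of factors known for respiratory genes. Capitals mark 2 overlapping matches to GCGCATGC, the letters of NRF1, on opposite strands, and 1 match on the minus strand to CCGGAAG, the letters of ETS factors such as GABP. The windows of the ubiquitous and the heart form of subunit 8, Cox8a (chr19:7217617-7217866, minus strand) and Cox8b (chr7:140900447-140900696, minus strand), are shown beside it for comparison and hold no match to any motif searched.
Cox6a1: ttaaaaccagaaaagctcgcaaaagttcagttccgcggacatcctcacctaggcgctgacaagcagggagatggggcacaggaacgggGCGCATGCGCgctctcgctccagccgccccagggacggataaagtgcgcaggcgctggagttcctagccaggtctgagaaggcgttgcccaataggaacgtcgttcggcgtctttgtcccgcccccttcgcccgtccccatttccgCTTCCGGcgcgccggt
Cox8a: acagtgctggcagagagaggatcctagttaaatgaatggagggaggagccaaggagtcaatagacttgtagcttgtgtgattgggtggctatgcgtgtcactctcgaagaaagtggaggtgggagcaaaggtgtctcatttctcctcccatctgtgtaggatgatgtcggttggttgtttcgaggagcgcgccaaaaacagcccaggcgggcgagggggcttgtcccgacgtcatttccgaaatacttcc
Cox8b: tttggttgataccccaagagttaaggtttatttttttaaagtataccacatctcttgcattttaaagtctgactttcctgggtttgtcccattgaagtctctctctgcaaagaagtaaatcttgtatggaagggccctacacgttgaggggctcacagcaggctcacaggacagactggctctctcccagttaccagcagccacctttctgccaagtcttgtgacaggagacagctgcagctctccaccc
The promoter table matched 37 of the 49 members, and Cox6a2 was not among them. Both strands were searched. A gene with several windows, as 3 of the members had, counted once if any window matched. GCGCATGC was found in 6 of the 37 members (16.2%) and in 2.56% of all 27025 genes with a window, and CCGGAAG in 9 (24.3%) and in 7.83%. AAGGTCA, the letters of ERR, was found in 2 (5.41%) and in 4.70%, AAGATGGC (YY1) in 1 (2.70%) and in 1.83%, and TATAAA in 3 (8.11%) and in 14.3%. GCGCATGC was also found in Atp5g2, Atp5k, Atp5l, Cycs and Sdhb. Limma on all libraries without a covariate called none of these, nor another member with CCGGAAG. These are matches of letters and not measured binding.

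Per kilobase of exon, complex V and complex IV members led the members in Con-Sham. Atp5b, the catalytic beta subunit of ATP synthase, had a mean of 72725 normalized counts per kilobase, Atp5a1, the alpha subunit, 45765, and Cox4i1, the main form of subunit 4 of complex IV, 45720. Sdha, the flavoprotein of complex II, had 14498, and Cycs, the electron carrier cytochrome c, 2208. Among the isoform pairs, per kilobase, the heart form Cox6a2 stood at 29859 against 2079 for Cox6a1, Cox7a1 at 14749 against 7543 for Cox7a2, and Cox8b at 17040 against 2458 for Cox8a. Cox4i2, the oxygen-responsive form, was low at 228 against 45720 for Cox4i1. The members' summed normalized count was 864430 ± 57154 in Con-Sham, 783460 ± 91129 in Tg-Sham, 780760 ± 156760 in Con-TAC, 667850 ± 217950 in Tg-TAC, 707790 ± 91752 in Con-TAC-MQ and 674500 ± 35218 in Tg-TAC-MQ (SD, n = 6 each). The spread was widest in the vehicle TAC groups and narrowest in Tg-TAC-MQ. In bulk tissue, fewer cells of a type and less RNA per cell cannot be told apart.

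**Figure D1:**
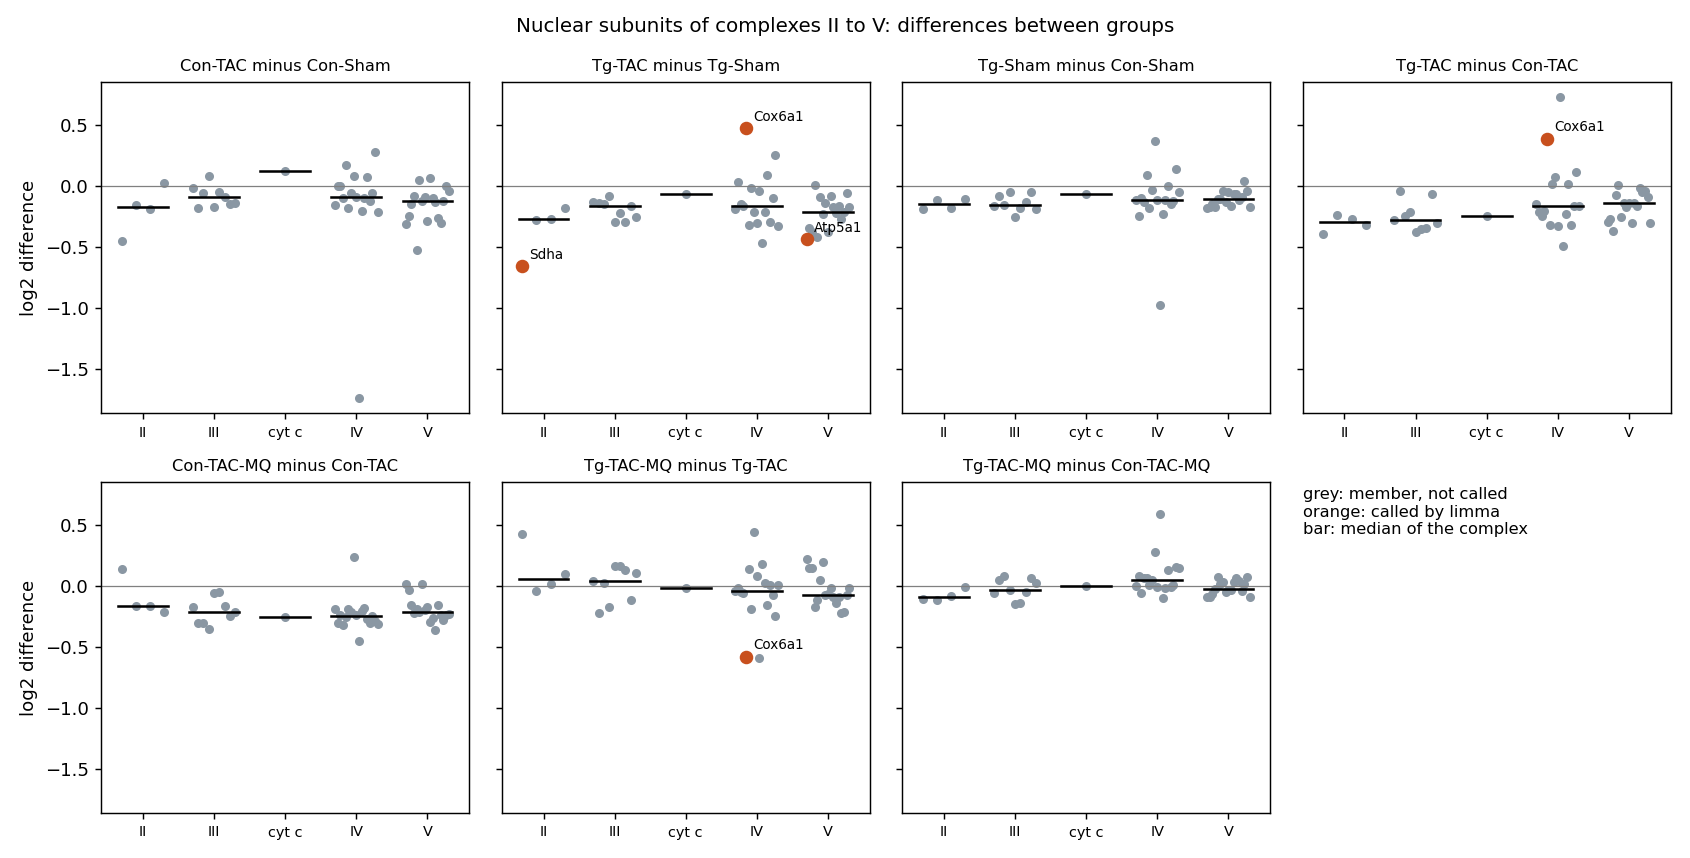
Log2 difference of each of the 48 tested members (points) by complex in the 7 comparisons of 2 groups, with the median of each complex as a bar and members called by limma in orange. Cox6a1 is called in 3 comparisons, opposite to most members in Tg-TAC against Tg-Sham and against Con-TAC.

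The complexes are first described by their medians over members, in log2 units. In Tg-TAC against Tg-Sham the median was -0.27 in complex II, -0.16 in complex III, -0.17 in complex IV and -0.21 in complex V. In Tg-TAC against Con-TAC these medians were -0.29, -0.28, -0.17 and -0.14, and Cycs stood at -0.25. In Tg-Sham against Con-Sham they were -0.15, -0.15, -0.12 and -0.11, and every member of complexes II and III was below 0. The median of every complex was below 0 in these comparisons. In Tg-TAC-MQ against Tg-TAC the medians were 0.05, 0.04, -0.04 and -0.08 in the same order, on both sides of 0. Differences between the complexes were not tested.
The other members of complex II had smaller differences than Sdha in both TAC comparisons. Sdhb, the iron-sulfur subunit, had 19318 ± 1615 normalized counts in Con-Sham, 17880 ± 2225 in Tg-Sham, 17756 ± 4028 in Con-TAC and 15752 ± 7245 in Tg-TAC (SD, n = 6). Sdhc, a membrane anchor, had 12902 ± 1704, 11330 ± 1107, 11514 ± 2429 and 9880 ± 3924 in the same order, and Sdhd, the other anchor, 11021 ± 952, 10230 ± 1111, 11393 ± 2122 and 9146 ± 1856. With all libraries and no covariate limma called none of the 3 in a comparison of 2 groups (smallest adjusted p = 0.105, Sdhd in Tg-TAC against Con-TAC at -0.32 ± 0.13). Without Tg-TAC 6 it called Sdhb and Sdhc lower in Tg-TAC against Tg-Sham and all 3 lower in Tg-TAC against Con-TAC.
In complex III the most negative member in Tg-TAC against Tg-Sham was Uqcrfs1, the Rieske iron-sulfur protein, at -0.30, and the least negative was Uqcrb at -0.08. In Tg-TAC against Con-TAC the smallest adjusted p of the complex was 0.0574 (limma), for the core subunit Uqcrc2 at -0.36 ± 0.12, with 5 of 6 Tg-TAC libraries lower than the Con-TAC mean. In complex V the differences in Tg-TAC against Tg-Sham ran from -0.44 for Atp5a1 to 0.01 for Atp5d, the delta subunit. In complex IV they ran from -0.47 for Cox7a1 to 0.47 for Cox6a1.

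TAC in control hearts gave no called member. The median log2 difference of the 48 members was -0.10 in Con-TAC against Con-Sham with 37 below 0, but 0.00 with 23 below 0 when libraries were set to 1 total of reads outside the mitochondrial genome, which moved the median of all genes by 0.10. It was 0.04 with 19 below 0 without Con-TAC 6, 0.13 with 7 below 0 with the name number class in the fit, and -0.19 without Con-TAC 5. The median of all 16275 genes was 0.01, and 5.3% of them were called. Limma with Benjamini-Hochberg adjustment called 0 members, 5 had an unadjusted p under 0.05, as had 3663 of all genes, edgeR called 0 and DESeq2 1, Cox6c2. Sdha had 45514 to 49951 normalized counts in Con-Sham (median 49045) and 23441 to 45453 in Con-TAC (median 36321). Every Con-TAC library was below every Con-Sham library, at a log2 difference of -0.45 ± 0.16 (SE) and an adjusted p of 0.080 (limma). Without Con-TAC 1 Sdha was called. Without 4 libraries doubted on the whole table (Con-Sham 2, Con-TAC-MQ 5, Tg-TAC 4 and Tg-TAC 6), Sdha and Atp5e, the epsilon subunit of ATP synthase, were called lower and Cox6a1 higher. Cox6c2, whose reads may be shared with its near copy Cox6c, had 78.9 to 146 normalized counts in Con-Sham and 15.0 to 75.1 in Con-TAC, at -1.74 ± 0.57 and an adjusted p of 0.0651 (limma).

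In Tg hearts, 3 members were called in TAC against sham. Cox6a1 was higher and Sdha and Atp5a1 were lower in Tg-TAC than in Tg-Sham, and the median of the 48 members was -0.19 with 43 below 0, beside a median of -0.01 over all genes. That median was -0.07 without Tg-TAC 4, -0.11 without Tg-Sham 5, -0.32 without Tg-TAC 6 and -0.12 with the name number class in the fit. Over all genes limma called 7.91% higher and 8.77% lower, and both counts of members, 1 and 2 of 48, lay below those shares.
Cox6a1 had 1061 to 1395 normalized counts in Tg-Sham (median 1277) and 1488 to 2019 in Tg-TAC (median 1701). The groups did not overlap, and the difference was 0.47 ± 0.10 (SE) on the log2 scale, 1.39-fold, with an adjusted p of 0.00352 (limma). It was called in each fit that left out 1 library, at 0.43 to 0.51.
Sdha had 38008 to 46839 in Tg-Sham (median 42526) and 17400 to 50050 in Tg-TAC (median 26289). Of the 6 Tg-TAC libraries 5 were below all Tg-Sham libraries and Tg-TAC 6 was above them all. The difference was -0.66 ± 0.16 with an adjusted p of 0.00566 (limma), and it was not called when only the libraries compared were fitted (adjusted p = 0.0641, limma).
Atp5a1 had 101800 to 128850 in Tg-Sham (median 118660) and 59239 to 159750 in Tg-TAC (median 80474), with the same 5 libraries low and Tg-TAC 6 high. Its difference of -0.44 ± 0.15 had an adjusted p of 0.0409 (limma), lost in 9 of the 12 fits without 1 library (adjusted p up to 0.136; kept only without Tg-Sham 1, Tg-TAC 2 or Tg-TAC 6) and with edgeR and DESeq2 (0.0851 and 0.0655).

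The number of members called lower after TAC in Tg hearts changed most when Tg-TAC 6 was left out. Tg-TAC 6 was the highest of its group in 46 of 48 members, with a median of 0.64 log2 above the group mean, and Tg-TAC 4 was the lowest in 45, at -0.62. Without Tg-TAC 6 limma called 20 members lower and 2 higher, where 14.9% of all genes were called lower. The 20 were 3 of complex II, 3 of complex III, 6 of complex IV and 8 of complex V. Sdha then stood at -0.83 ± 0.13, Atp5a1 at -0.61 ± 0.12 and Atp5h, the d subunit of the ATP synthase stalk, at -0.60 ± 0.14. Cox8a joined Cox6a1 as higher. With only libraries named 7 to 14, which keeps 5 of Tg-TAC and 3 of Tg-Sham, limma called 4 lower (Sdha, Atp5a1, Atp5b and Atp5c1), where 8.98% of all genes were lower. Without the 4 doubted libraries it called 6 lower and 2 higher, where 12.2% of all genes were lower.

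**Figure D2:**
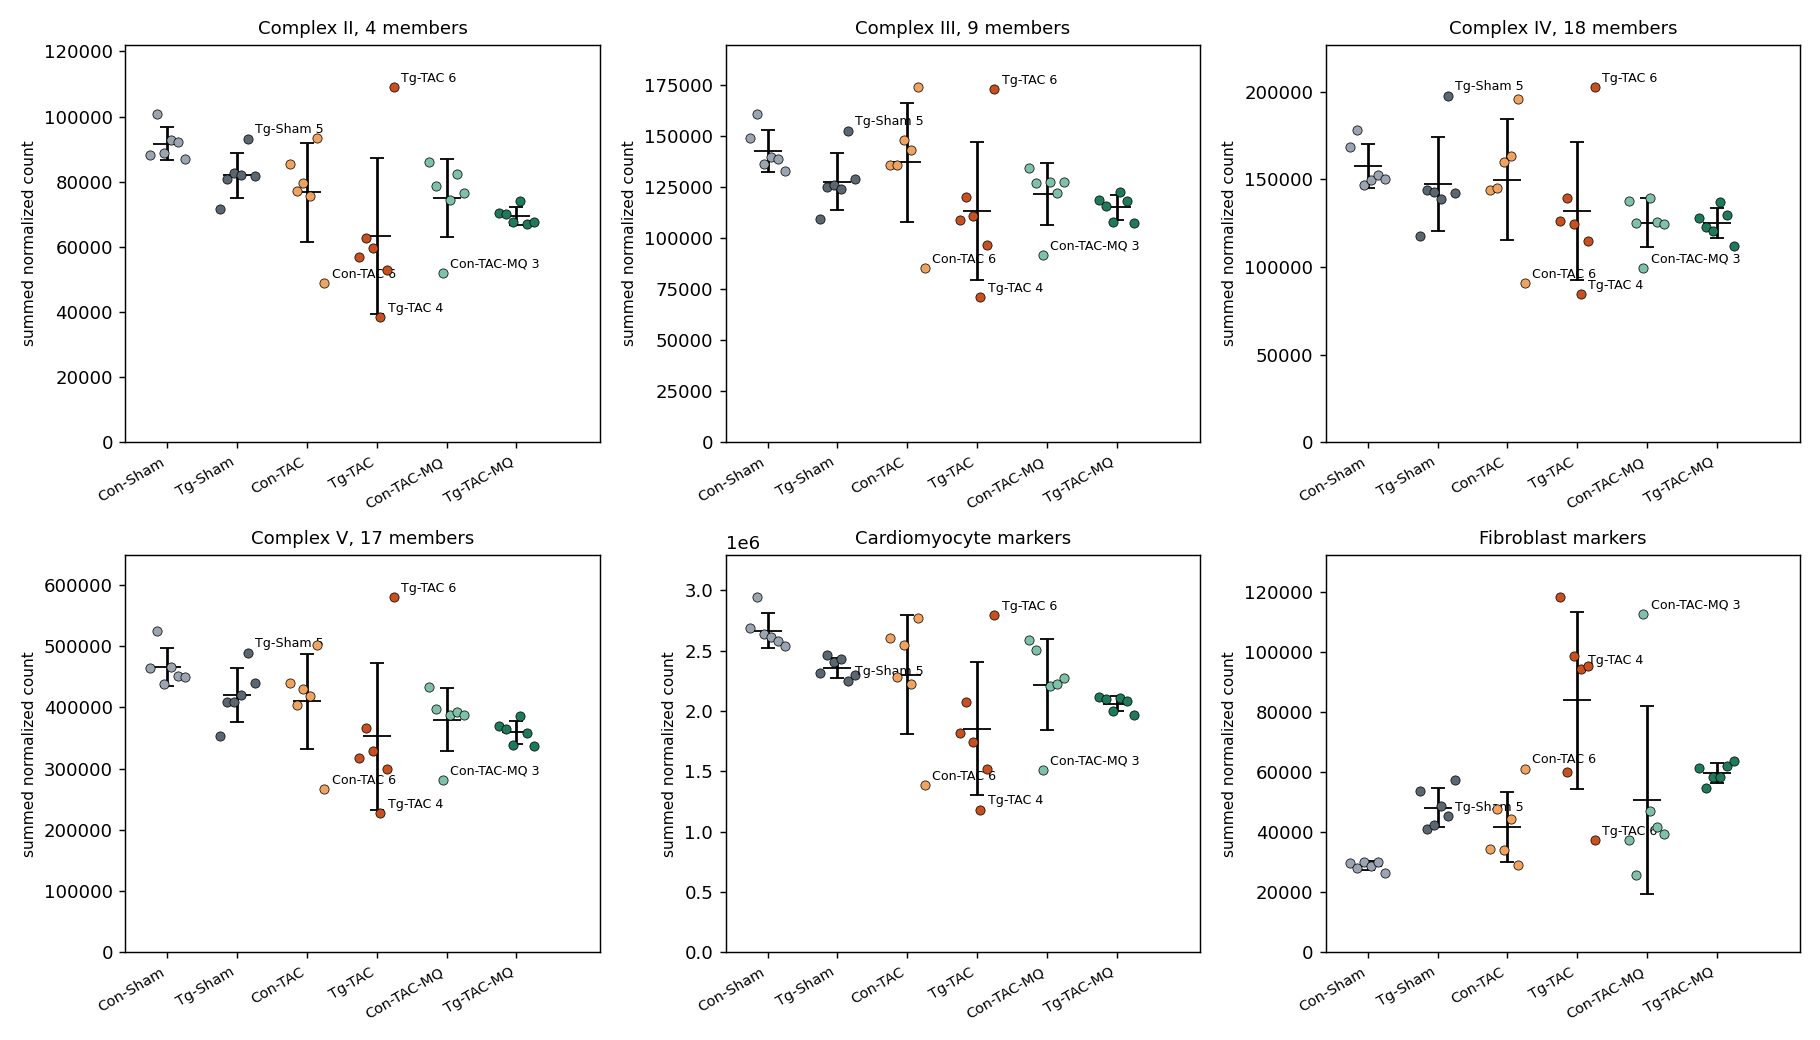
Summed normalized counts of the members of each complex by library (points; mean and SD as bars, n = 6 per group), beside the summed cardiomyocyte and fibroblast markers. Tg-TAC 6 is high and Tg-TAC 4, Con-TAC 6 and Con-TAC-MQ 3 are low in all 4 complexes and in the cardiomyocyte sum.

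In the TAC groups, the libraries furthest from the rest in the members stood at the same end in cardiomyocyte markers. The cardiomyocyte sum was 1180700 in Tg-TAC 4 and 2791900 in Tg-TAC 6, the lowest and the highest of Tg-TAC (median 1777700). It was 1385000 in Con-TAC 6 (group median 2414700) and 1514500 in Con-TAC-MQ 3 (group median 2248700), the lowest of their groups, and these libraries were lowest in 47 and 40 of the 48 members. The sum of 8 fibroblast markers stood at the other end in Tg-TAC 6, Con-TAC 6 and Con-TAC-MQ 3, but not in Tg-TAC 4. It was 37422 in Tg-TAC 6, the lowest of Tg-TAC (median 94801), and 61164 in Con-TAC 6 and 112900 in Con-TAC-MQ 3, the highest of their groups. The highest of Tg-TAC was Tg-TAC 1 (118270). Adipoq, an adipocyte gene, had 2679 normalized counts in Tg-TAC 4 and at most 22.8 in any library of the other 5 groups. In Tg-Sham this did not hold. Tg-Sham 5 was the highest of its group in 45 of 48 members and had the lowest cardiomyocyte sum (2252500), and Tg-Sham 1, the lowest in 41 members, had 2318300. The part of cell composition in the members' differences was not tested.

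The genotype label under sham gave no called member. The median of the members was -0.12 in Tg-Sham against Con-Sham with 44 of 48 below 0, and -0.04 with 33 below 0 with the total outside the mitochondrial genome, beside 0.00 over all genes, of which 0.873% were called. Among libraries named 7 to 14 it was -0.27. Leaving out Tg-Sham 5 gave -0.19, leaving out Con-Sham 2 gave -0.07 and leaving out Tg-Sham 1 gave -0.06. Limma called 0 members, none had an unadjusted p under 0.05, and edgeR and DESeq2 called 0. With only the libraries compared limma called Uqcrc1, a core subunit of complex III, lower. It had 33578 to 38187 in Con-Sham (median 35165) and 25956 to 34033 in Tg-Sham (median 29573), at -0.25 ± 0.16 and an adjusted p of 0.521 in the fit of all libraries (limma). Of 8 macrophage markers 5 were higher in Tg-Sham, and their sum ran from 11519 to 17147 against 6420 to 8745 in Con-Sham.

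After TAC with vehicle, Cox6a1 was the 1 member that limma called between the genotypes, and it was higher in Tg-TAC. The members' median was -0.21 with 41 of 48 below 0, beside 0.00 over all genes. It was -0.09 without Tg-TAC 4, -0.14 without Con-TAC 5, -0.34 without Tg-TAC 6 and -0.36 without Con-TAC 6. Of all genes 3.19% were called higher and 3.29% lower. An unadjusted p under 0.05 (limma) was found for 11 of 48 members and for 4318 of all 16275 genes. With both directions pooled, the members' share did not exceed that of all genes. Of the 11 members 10 were negative, and the share of negative differences among the 4318 genes was not counted. Whatever the p, 41 of 48 members and 49.9% of all genes had a difference below 0. Members moved together by library, so their signs are not independent. Cox6a1 had 1120 to 1431 in Con-TAC (median 1358) and 1488 to 2019 in Tg-TAC (median 1701), without overlap. The difference was 0.39 ± 0.10, with an adjusted p of 0.0286 (limma). The call was lost without Con-TAC 1, Con-TAC 3, Tg-TAC 1 or Tg-TAC 4 (adjusted p 0.0763, 0.0593, 0.0571 and 0.0844, limma) and when only the libraries compared were fitted (0.170). That last fit called 1 gene higher and 0 lower of all 16275, so it kept at most 1 of the marker calls that follow. With all libraries, fibroblast markers (3 of 8) and macrophage markers (5 of 8) were also called higher in Tg-TAC. The library with the lowest sums of both in its group, Tg-TAC 6, had 2019 of Cox6a1, and the library with the lowest cardiomyocyte sum, Tg-TAC 4, had 1881, the highest 2 values of the group. The part of these cells in the difference was not tested.

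With all libraries limma called 0 members lower in Tg-TAC than in Con-TAC, edgeR 0 and DESeq2 1 (Uqcrc2), and the count changed with the libraries and covariate used. The median member stood at -0.68 log2 from its group mean in Con-TAC 6 and at 0.64 in Tg-TAC 6. Without Con-TAC 6 limma called 20 members lower (8.9% of all genes), and without Tg-TAC 6 it called 18 (11.4% of all genes). With the name number, in classes, as a covariate it called 25 lower (10.3%), and among libraries named 7 to 14, which leave out both, 31 lower (12.3%). Cox6a1 was called higher in each of these. Without the 4 doubted libraries, which do not include Con-TAC 6, it called 5 lower (6.72%).
Among libraries named 7 to 14 (5 and 5), all 4 members of complex II were called lower, 8 of 9 of complex III, cytochrome c, 9 of 17 tested of complex IV and 9 of 17 of complex V. Sdha was at -0.69 ± 0.12 (SE, adjusted p = 0.00075, limma), Uqcrc1 at -0.69 ± 0.13 (0.0013) and Atp5c1, the gamma subunit of the ATP synthase rotor, at -0.62 ± 0.12 (0.00151). Cox7a1, the heart form of subunit 7A, was at -0.96 ± 0.21 (0.00364). Uqcrc1 illustrates the pattern. Con-TAC 6 had 18874 normalized counts against a group median of 33470, and Tg-TAC 6 had 43444 against 24034. What the name number stands for is unknown, so its part in the calls cannot be told apart from that of these libraries.

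**Figure D3:**
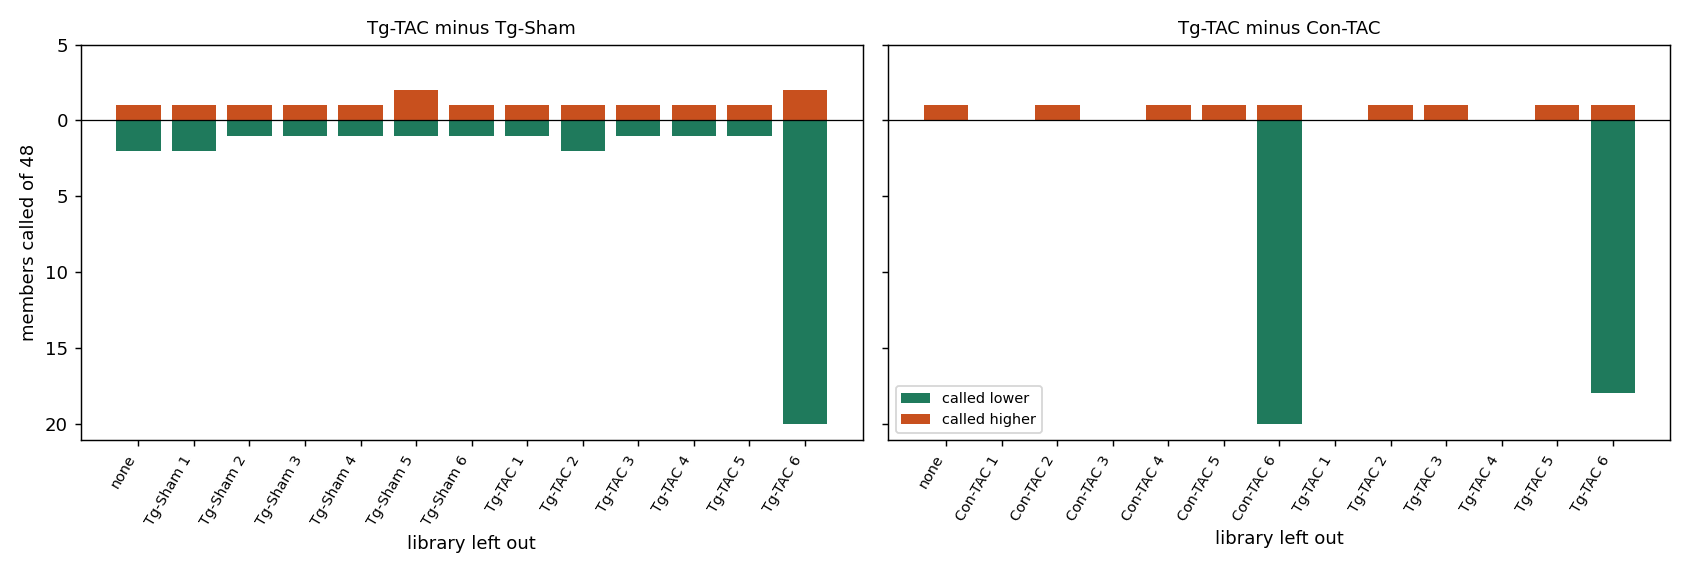
Members called higher (above 0) and lower (below 0) by limma, of 48, when no library or 1 library was left out, for TAC in Tg hearts (left) and for the genotype label after TAC (right). Leaving out Tg-TAC 6 gives 20 and 18 members lower, and leaving out Con-TAC 6 gives 20 on the right.

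MitoQ after TAC in control hearts gave no called member. The median was -0.22 in Con-TAC-MQ against Con-TAC with 44 of 48 below 0, beside 0.01 over all genes, of which 3.23% were called. With the name number class in the fit it turned to 0.47 with 1 below 0, and it was -0.14 without Con-TAC 5 and -0.35 without Con-TAC 6. Limma called 0 members, 9 of 48 had an unadjusted p under 0.05, as had 3053 of all 16275 genes, and edgeR and DESeq2 called 0. Fitted on only the libraries compared, limma called 2 of all genes higher and 24 lower. Without Con-TAC 6 limma called 9 lower, where 4.6% of all genes were lower: 3 of complex III, Cycs, 3 of complex IV and 2 of complex V. Cox5b, a structural subunit of complex IV, then stood at -0.47 ± 0.12 (adjusted p = 0.0115, limma). All MitoQ libraries have the name number 20 or 21, of the vehicle TAC libraries only Con-TAC 6 does, and the share of reads on Rn18s-rs5, which encodes ribosomal RNA, was 0.591% to 1.39% in MitoQ and 1.55% to 11.8% in vehicle TAC libraries. MitoQ and these library features cannot be told apart.

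In Tg hearts after TAC, Cox6a1 was lower with MitoQ and was the only member limma called. The median of the members was -0.02 with 27 of 48 below 0, 0.01 with TMM factors and 0.08 with the total outside the mitochondrial genome, beside 0.00 over all genes, of which 9.89% were called higher and 7.44% lower. It was -0.15 with 40 below 0 without Tg-TAC 4, 0.11 with 12 below 0 without Tg-TAC 6 and 0.84 with the name number class in the fit, so no direction is given for the members. Cox6a1 had 1488 to 2019 in Tg-TAC (median 1701) and 1050 to 1227 in Tg-TAC-MQ (median 1154). The groups did not overlap, at -0.58 ± 0.10 and 0.669-fold, with an adjusted p of 0.000426 (limma). Each fit without 1 library called it. With the name number class in the fit it was not called (-0.49, adjusted p = 0.134, limma) and 29 other members were called higher, where 7.82% of all genes were higher. That covariate sets the level of the names 20 and 21 from Con-TAC 6 alone among the vehicle TAC libraries. Sdha had 33010 to 39082 in Tg-TAC-MQ (median 36216), within the range of Tg-TAC, at 0.42 ± 0.16 and an adjusted p of 0.0578 (limma). It was called with TMM factors, with the total outside the mitochondrial genome and without Tg-TAC 6. Without Tg-TAC 6 Atp5a1 was also called higher and Cox8a lower, 4 members in all.

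Between the genotypes under MitoQ, the members had a median of -0.01 in Tg-TAC-MQ against Con-TAC-MQ (0.01 with TMM factors and 0.05 with the total outside the mitochondrial genome), and limma called 0.0737% of all genes. Limma called 0 members, none had an unadjusted p under 0.05, and edgeR and DESeq2 called 0. Cox6a1 differed by 0.06 ± 0.10. For both interactions limma called 0 members and 0% of all genes, and edgeR and DESeq2 called 0 members. In the interaction of genotype and TAC the median was -0.10 with 38 of 48 below 0, but 0.02 with 18 below 0 without Tg-TAC 4, -0.24 without Con-TAC 6 and -0.23 without Tg-TAC 6. Leaving out Tg-Sham 5 gave -0.02 and leaving out Tg-Sham 1 gave -0.16. In that of genotype and MitoQ it was 0.19 with 2 below 0, and 0.09 without Tg-TAC 4, 0.11 without Con-TAC 5, 0.33 without Tg-TAC 6 and 0.33 without Con-TAC 6. Each had 1 member at an unadjusted p under 0.05, Cox6c2 at 1.70 ± 0.81 (adjusted p = 0.828) for TAC and Cox6a1 at -0.33 ± 0.15 (adjusted p = 0.574, limma) for MitoQ. The size of the Cox6a1 differences was therefore not shown to depend on the genotype.

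The ratio of the heart form to the ubiquitous form within a library does not depend on its size factor. The log2 ratio of Cox6a2 to Cox6a1 was 4.12 ± 0.28 in Con-Sham, 3.85 ± 0.27 in Tg-Sham, 3.77 ± 0.34 in Con-TAC, 3.06 ± 0.47 in Tg-TAC, 3.83 ± 0.27 in Con-TAC-MQ and 3.78 ± 0.12 in Tg-TAC-MQ (SD, n = 6). Tg-TAC libraries ran from 2.17 to 3.48, below all of Tg-Sham (3.53 to 4.32) and of Tg-TAC-MQ (3.57 to 3.91). The lowest was Tg-TAC 4, and the next library stood at 3.01. Tg-TAC 4 also had the fewest reads of all libraries (14.8 M) and 11.8% of them on Rn18s-rs5. The ratio was lower in Tg-TAC than in Tg-Sham (difference -0.79 ± 0.22, SE), and higher in Tg-TAC-MQ than in Tg-TAC (0.71 ± 0.20). Both had an exact two-sided permutation p of 0.00216, the smallest that 6 against 6 allows, and an adjusted p of 0.0303 over the 28 tests of 4 pairs in 7 comparisons. Against Con-TAC the ratio in Tg-TAC was -0.71 ± 0.24 (exact permutation p = 0.0108, adjusted 0.101).
Cox6a1 had means of 1187 ± 257 normalized counts in Con-Sham, 1248 ± 153 in Tg-Sham, 1321 ± 123 in Con-TAC, 1731 ± 195 in Tg-TAC, 1109 ± 128 in Con-TAC-MQ and 1152 ± 61.7 in Tg-TAC-MQ (SD, n = 6). In the same order Cox6a2 had 20304 ± 600, 18333 ± 4552, 18481 ± 4709, 14919 ± 4275, 15788 ± 1751 and 15801 ± 854. Tg-TAC thus had the highest mean of the ubiquitous form and the lowest of the heart form.
Cox6a2 had 14888 to 27270 in Tg-Sham (median 16928) and 8472 to 21653 in Tg-TAC (median 14479), and its difference of -0.32 ± 0.16 was not called (adjusted p = 0.165, limma).
Cox7a1, the heart form of subunit 7A, had 7891 ± 1413 normalized counts in Con-Sham, 6799 ± 1511 in Tg-Sham, 7153 ± 2353 in Con-TAC, 5500 ± 3343 in Tg-TAC, 5921 ± 1061 in Con-TAC-MQ and 5487 ± 654 in Tg-TAC-MQ (SD, n = 6). In the same order Cox7a2, the ubiquitous form, had 5740 ± 397, 5384 ± 1209, 5512 ± 1378, 4610 ± 733, 4727 ± 575 and 4649 ± 321. The heart form exceeded the other in mean count in every group.
Cox8b, the heart form of subunit 8, had 6134 ± 1072, 5972 ± 1283, 5472 ± 1627, 4963 ± 2018, 4280 ± 771 and 4705 ± 627, and Cox8a, the ubiquitous form, had 1521 ± 78.3, 1692 ± 302, 1873 ± 376, 2021 ± 347, 1517 ± 155 and 1683 ± 139. Cox8a stood at 0.28 ± 0.12 in Con-TAC against Con-Sham (adjusted p = 0.155) and at 0.25 ± 0.12 in Tg-TAC against Tg-Sham (adjusted p = 0.131, limma), both not called.
Cox4i1 had 41468 ± 4622, 38573 ± 6564, 37794 ± 7958, 35001 ± 12779, 32772 ± 4457 and 32432 ± 2418, and Cox4i2 had 179 ± 37.4, 150 ± 22.5, 178 ± 29.4, 160 ± 48.7, 145 ± 27.4 and 151 ± 13.5. With all libraries limma called neither in any comparison, and without Tg-TAC 6 it called Cox4i1 lower in Tg-TAC against Tg-Sham.
For subunits 7A and 8 no ratio was called. Cox8b to Cox8a differed by -0.49 ± 0.17 in Con-TAC against Con-Sham (exact permutation p = 0.0152, adjusted 0.106), and Cox7a1 to Cox7a2 by -0.25 ± 0.25 in Tg-TAC against Tg-Sham (exact permutation, adjusted p = 0.636). Tg-TAC 6 had the highest ratio of both pairs in its group, 2.63 for Cox8b to Cox8a (median 1.13) and 1.09 for Cox7a1 to Cox7a2 (median 0.07). Without it 9 of the 28 tests were called, among them Cox8b to Cox8a at -0.87 (adjusted p = 0.0202) and Cox7a1 to Cox7a2 at -0.46 (adjusted p = 0.0242) in Tg-TAC against Tg-Sham (exact permutation). Without Con-TAC 6, 3 were called, with Cox6a2 to Cox6a1 at -0.83 in Tg-TAC against Con-TAC (exact permutation, adjusted p = 0.0404). Without Tg-TAC 4 the ratio of Cox6a2 to Cox6a1 differed by -0.61 and 0.54 in the comparisons with Tg-Sham and Tg-TAC-MQ, and neither was called (adjusted p = 0.0606, exact permutation). The calls were also lost without any 1 library of Tg-Sham (-0.86 to -0.70) or of Tg-TAC-MQ (0.69 to 0.76), where the adjusted p was 0.0606 or 0.0909 (exact permutation). Leaving out a library could not make these separated groups overlap. With 1 library fewer the exact p moves in coarse steps, so these losses alone do not measure how firm the ratios are. Without Tg-TAC 6 both calls of Cox6a2 to Cox6a1 were kept, at -0.86 and 0.79 (adjusted p = 0.0202, exact permutation). Cox4i2 to Cox4i1 was not called in any comparison.

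**Figure D4:**
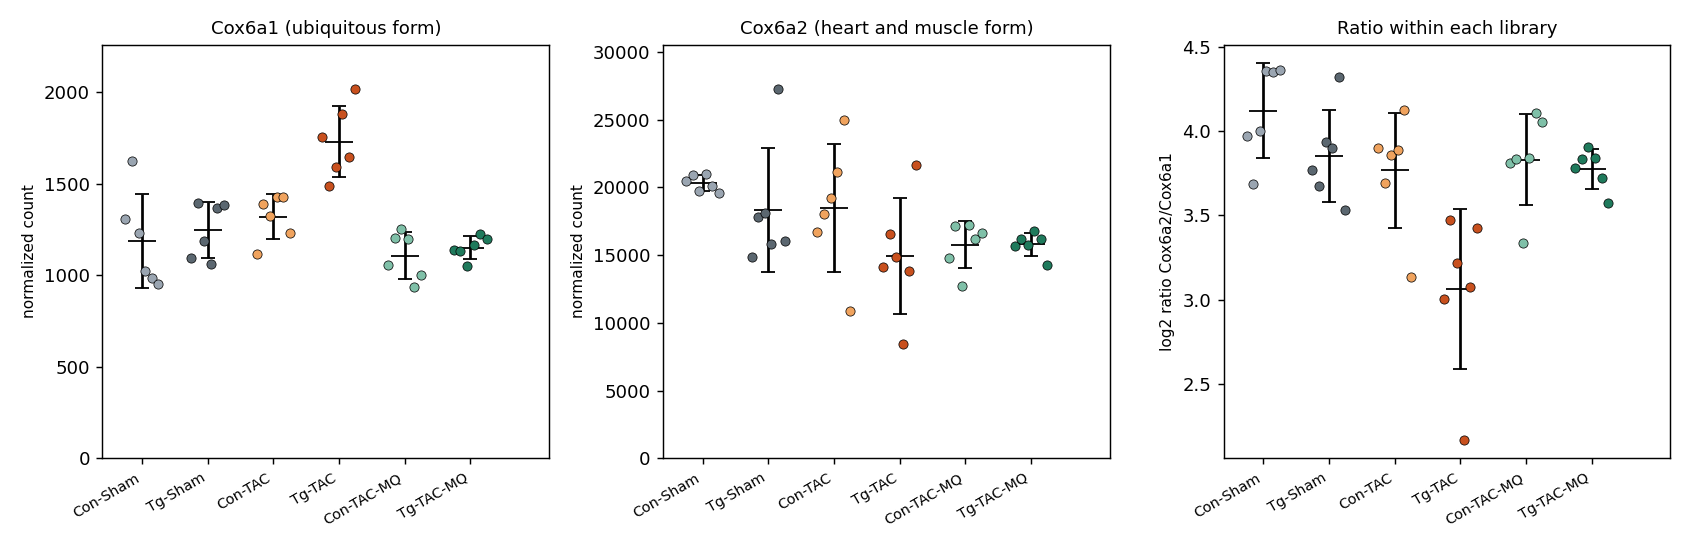
Normalized counts of Cox6a1 and Cox6a2 and their log2 ratio by library (points; mean and SD as bars, n = 6 per group). The 6 Tg-TAC libraries lie between 1488 and 2019 for Cox6a1, above all Tg-Sham, Con-TAC and Tg-TAC-MQ libraries, and their ratios lie between 2.17 and 3.48.

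Cox6a1 lies on chromosome 5 (mm39, 115483701 to 115487040, minus strand), 129029 bases from Sirt4 at 115616069 to 115622784. Its difference between Tg-Sham and Con-Sham was 0.09 ± 0.10 and was not called (adjusted p = 0.768, limma).

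Genes around the chain were counted from lists chosen with these data known. Of 18 regulators of respiratory genes 6 were lower in Tg-TAC than in Tg-Sham (8.77% of all genes) and 6 were higher in Tg-TAC-MQ than in Tg-TAC (9.89% of all genes). In the first comparison 4 of 12 cardiomyocyte markers were also called lower (8.77% of all genes) and 4 of 8 fibroblast markers higher (7.91% of all genes). In the second 2 of 12 cardiomyocyte markers were higher (9.89% of all genes) and 2 of 8 fibroblast markers lower (7.44% of all genes). Their part in the regulators' differences was not tested. Ppargc1a, a coactivator of mitochondrial genes, was at -0.81 ± 0.19 (adjusted p = 0.00494) and 0.75 ± 0.19 (0.00673, limma), Esrrg, an estrogen-related receptor, at -0.44 ± 0.12 (0.0103) and 0.58 ± 0.12 (0.00106), and Ppara, a receptor of fatty acid metabolism, at -0.96 ± 0.28 (0.0178) and 1.51 ± 0.28 (0.000655). The 2 comparisons share the Tg-TAC libraries. In Con-TAC against Con-Sham 2 of 18 were lower (432 of all 16275 genes), and in Tg-TAC against Con-TAC 3 (3.29% of all genes). When only the libraries compared were fitted, limma called 0 genes lower in Tg-TAC than in Con-TAC. All lower calls of these lists in that comparison were then lost.
Of the mitochondrially encoded subunits 5 were tested, and 4 were lower in Tg-TAC than in Con-TAC (3.29% of all genes). Of the 4, mt-Co2, mt-Co3 and mt-Atp6 were also called lower in Tg-TAC against Tg-Sham (8.77% of all genes) and in Con-TAC-MQ against Con-TAC (213 of all 16275 genes). mt-Co1 was not. mt-Co1, the catalytic subunit of complex IV, had 1696700 to 2749700 normalized counts in Con-TAC and 1140200 to 2078900 in Tg-TAC, at -0.53 ± 0.15 (adjusted p = 0.0318, limma). mt-Co2, another core subunit, had means of 525 and 206, mt-Co3 318 and 119, and mt-Atp6 172 and 72.9 in the same 2 groups. All 3 lay far below mt-Co1, so their counting is uncertain.
Of 27 assembly factors of complex IV 1 was higher and 1 lower in Tg-TAC against Tg-Sham, where 7.91% and 8.77% of all genes were. In Tg-TAC against Con-TAC 2 were lower, where 3.29% of all genes were. In Tg-TAC-MQ against Tg-TAC 3 were higher and 3 lower, where 9.89% and 7.44% of all genes were.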

How the data were processed

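Whole-heart RNA was extracted with a fibrous tissue kit and made into directional libraries, per the labels' protocols. Trim Galore, STAR and mm39 are named, per the submitters' processing notes. Their versions, the counting program and the source of the size factors were not given in the sources used here. Each deposited value, a signal, is a normalized count per gene and library. All values (100.0%) were whole reads times 1 step per library within 0.01 read, so reads were recovered for edgeR 4.0.16 and DESeq2 1.42.0.

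Log2(value + 1) of the 16275 genes with at least 10 in at least 6 libraries was fitted with limma 3.58.1 in R 4.3.3 (trend, robust, 1 mean per group, 36 libraries). Contrasts were two-sided, with Benjamini-Hochberg adjustment over all genes and a threshold of 0.05; a called gene passed it. Isoform ratios had exact permutation tests. The members and lists were chosen with earlier results of these data known. Named are the called members, at most 8 each way by adjusted p, the isoform pairs, extremes per complex and, for interactions, the smallest p; Uqcrc1, and members named under other settings, were chosen after their values were seen. Lengths are of GENCODE M21 exons. The steps were tested on simulated data. Alternatives are given in the closing section; leaving out the 4 doubted libraries, taken from an earlier look at the whole table, was added after the data were seen. Nothing in the labels says that replicates came from separate animals, so p-values measure only the spread between these libraries, which may be technical.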

Additional observations from a re-analysis of the deposited data

Results flagged for a closer look

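In 342 sets of 6 values (members, sums of a complex and isoform ratios in each group), 52 had a highest or lowest library far from the others. Chance flags about 1 in 20 such sets, and members share their libraries, so the flags are not independent. Values are normalized counts.

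Tg-TAC 6 stood apart as the highest of its group in Sdha (50050), Sdhb (29742), Sdhc (17391), Uqcrb (11768), Uqcrh (16471), Cox7a1 (11915), Atp5a1 (159750), Atp5e (10497), Atp5g3 (56089), Atp5h (27502), Atp5l (3936.9), Atp5md (10650), Atp5pb (33148) and the sum of complex II (108990). Con-TAC-MQ 3 stood apart as the lowest of its group in Sdhb (11426), Sdhd (6844.4), Uqcrc1 (22334), Uqcrc2 (18873), Uqcrfs1 (13742), Cox7b (6700.1), Atp5a1 (77756), Atp5c1 (14517), the sum of complex II (51988), the sum of complex III (91872), the sum of complex IV (99561), the sum of complex V (281030) and the sum of all members (529530). Tg-Sham 5 stood apart as the highest of its group in Uqcr11 (7401.4), Uqcrc2 (26587), Uqcrq (9614.9), Cox5b (13426), Cox6a2 (27270), Cox7a2 (7665.8), Cox7b (15183), Atp5c1 (29061), Atp5g1 (24654), Atp5j2 (15520) and the sum of complex IV (197730). Con-Sham 2 stood apart as the highest of its group in Sdhc (16227), Uqcrfs1 (27776), Cox6b1 (14048), Atp5h (21944), Atp5l (3279.6), Atp5md (8228.1) and the sum of complex V (524580). 

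Cox6b2 stood apart in Con-Sham 2 at 1.1, with the nearest library at 13.8. Cox6b2 stood apart in Tg-TAC-MQ 2 at 31.2, with the nearest library at 15.8. Cox7a2 stood apart in Con-Sham 1 at 6511.9, with the nearest library at 5737.8. Cox8a stood apart in Con-Sham 3 at 1671.5, with the nearest library at 1525.5. Atp5b stood apart in Con-TAC 6 at 85023, with the nearest library at 126460. Atp5pb stood apart in Con-TAC 6 at 14365, with the nearest library at 23641. log2 ratio Cox6a2/Cox6a1 stood apart in Tg-TAC 4 at 2.17, with the nearest library at 3.01. Cox6b2, a testis form of subunit 6B, is near the limit of detection here.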

How the results depend on the processing

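Counts of members called (main count first) moved as follows. In Con-TAC against Con-Sham (0) it was 1 with a pseudocount of 10, 1 with only the libraries compared, 1 with DESeq2, 3 without the 4 doubted libraries, and 0 to 1 leaving out 1 library. In Tg-TAC against Tg-Sham (3) it was 1 with only the libraries compared, 5 with names 7 to 14, 8 without these 4, and 2 to 22. In Tg-Sham against Con-Sham (0) it was 1 with only the libraries compared and 0 leaving out 1 library. In Tg-TAC against Con-TAC (1) it was 26 with the name class as a covariate, 0 with only the libraries compared, 32 with names 7 to 14, 2 with DESeq2, 6 without these 4, and 0 to 21. In Con-TAC-MQ against Con-TAC (0) it was 0 to 9. In Tg-TAC-MQ against Tg-TAC (1) it was 2 with TMM, 2 with the total outside the mitochondrial genome, 29 with the covariate, 3 without these 4, and 1 to 4. Isoform ratio tests called (2) ranged from 0 to 9 leaving out 1 library. In Tg-TAC-MQ against Con-TAC-MQ and both interactions the count was 0 in each setting run. No named call reversed. The total outside the mitochondrial genome shifted the median of all genes by 0.10 in Con-TAC against Con-Sham and moved the share of calls that were higher from 49.9% to 83.6% there, from 59.5% to 84.4% in Con-TAC-MQ against Con-TAC, and from 57.1% to 85.2% in Tg-TAC-MQ against Tg-TAC. Same-numbered libraries did not deviate together (r from -0.48 to 0.31); the replicate block gave 2 called members in Tg-TAC against Tg-Sham, losing Atp5a1 (adjusted p = 0.0547, limma), and changed no other count. The members' median turned to the other sign with the name class as a covariate in Con-TAC against Con-Sham (0.13), Con-TAC-MQ against Con-TAC (0.47) and Tg-TAC-MQ against Tg-TAC (0.84).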
